A study of Mus musculus with 3 samples.

Results

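Vesicle traffic genes were taken here as the genes listed at any stage whose name starts with Rab followed by a digit, Vps, Snx, Sec followed by a digit, Copa, Copb, Copg, Cope, Copz, Trappc, Tbc1d, Stx, Arf or Exoc. This name rule found 171 of the 8353 genes with a listed 5-methylcytosine (m5C) site, and they held 957 of the 40298 distinct sites. The Rab names brought 36 genes with 208 sites, Vps 24 genes with 162, Tbc1d 18 with 133, Arf 13 with 116, Sec 21 with 101, Trappc 13 with 75, Snx 19 with 68, Stx 15 with 54, Cop 7 with 22 and Exoc 5 with 18. The names bring in partner proteins such as the Rab11 effectors (Rab11fip), the ARF exchange factors (Arfgef) and the syntaxin binding proteins (Stxbp). Vps72, a subunit of chromatin remodelling complexes, and Rab11fip4os1, a transcript antisense to Rab11fip4, entered by name alone.

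RNA bisulfite sequencing was performed on wild-type C57BL/6J mouse germinal vesicle (GV) oocytes, metaphase II (MII) oocytes and 1-cell embryos, with 1 library at each stage. Bisulfite turns unmethylated cytosine into uracil, so the m5C level of a site is the percent of its reads that still show C. Per the labels, females of 7 to 8 weeks received pregnant mare serum gonadotrophin (PMSG) and gave GV oocytes from minced ovaries 48 h after 10 IU of it, MII oocytes from the oviduct 12 h after 5 IU of human chorionic gonadotrophin (hCG) that followed 10 IU of PMSG, and, after mating with C57BL/6J males, 1-cell embryos 24 h after 5 IU of hCG that followed 5 IU of PMSG. In every group the zona pellucida was removed with hyaluronidase and the cells were pooled, the number of cells per pool not being given in the sources used here. For MII oocytes a higher hCG dose stands in the study's methods, and the conversion step is described differently for the oocytes and the embryos. As starting material the labels give polyadenylated RNA and the methods RNA depleted of ribosomal RNA. With no replicate, stage, library and batch cannot be told apart, and every difference below is a difference between libraries.

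Reads at listed sites summed to 4475058 in GV oocytes, 5285011 in MII oocytes and 2616279 in 1-cell embryos. Each list holds called sites alone, with at least 20 reads, 5 unconverted reads and a level of 10%, and absence from a list leaves it unknown whether a position was unmethylated, below these limits or too thinly covered. Of 10 oocyte genes, among them Gdf9 and Zp3, 7 were listed in GV oocytes, 9 in MII oocytes and 10 in 1-cell embryos. Of 10 follicle cell genes, none was listed in GV oocytes or 1-cell embryos, and Amh and Cyp19a1 were listed in MII oocytes, at no more than 96 reads. The share of C left unconverted in the same genes, recovered from the deposited p-values, had a median over the traffic genes of 0.275% in GV oocytes, 0.379% in MII oocytes and 0.351% in 1-cell embryos, far under the 10% limit.

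Cargo leaves the endoplasmic reticulum in COPII-coated vesicles, returns from the Golgi in COPI-coated ones, and is sorted at endosomes by retromer, sorting nexins and the ESCRT machinery. Small GTPases of the RAB and ARF families mark each membrane, exchange factors and GTPase activators such as the TBC1D proteins switch them, tethers such as TRAPP, HOPS, GARP and the exocyst catch the vesicle, and SNARE proteins such as the syntaxins fuse it. In oocytes the pathway supplies the zona pellucida proteins and the cortical granules, which are released at fertilization. In mRNA, NSUN2 is known to methylate C followed by a G-rich stretch (Type I), and NSUN6 to methylate C within CUCCA and like motifs (Type II).

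The sequences around 10 of the sites on which the results below turn are printed from GENCODE M21 transcripts (GRCm38), 5′ to 3′, with T for U. Each window has 21 bases, and the capitals mark the methylated C and the 4 bases that follow it. The first 3 hold the sites with the largest rises from GV oocytes to 1-cell embryos among those with at least 50 reads at both stages.
Arfgef2, chr2:166893543-166893563, + strand: cgagagccatCGGGAagcatg
Tbc1d10a, chr11:4212861-4212881, + strand: cccattgctgCTGTGctcctc
Stxbp6, chr12:45074318-45074338, − strand: gagccgcgatCAGCCagaagc

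The next 2 windows hold sites that were above 80% at every stage, as was a site in Snx8.
Arf3, chr15:98741030-98741050, − strand: aggatgctggCGGAGgatgag
Tbc1d1, exon 2, chr5:64173514-64173534, + strand: cgttccctaaCGAAGtctccg

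The last 5 are the Type II sites listed at every stage with the deepest coverage, and all 5 read CTCCA from the methylated C on.
Tbc1d1, exon 15, chr5:64311073-64311093, + strand: ggagagctccCTCCAcgctcc
Stx5a, chr19:8742233-8742253, + strand: acattctcctCTCCAcaacag
Sec16a, chr2:26422046-26422066, − strand: tacactaagtCTCCAggaaag
Rab27a, chr9:73095574-73095594, + strand: ctctcctcgcCTCCAggaggg
Sec61a1, chr6:88506773-88506793, − strand: gtgcattcttCTCCAaaacat

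Traffic genes with a listed site numbered 131 in GV oocytes, 141 in MII oocytes and 143 in 1-cell embryos. Their sites numbered 392, 507 and 639, and made up 2.46%, 2.45% and 2.56% of the lists. The median m5C level was 18.9% in GV oocytes, 19.5% in MII oocytes and 25% in 1-cell embryos, beside 19.5%, 19.9% and 23.8% over the sites of all other genes. The median coverage went the other way, at 141, 110 and 58 reads. Among sites with at least 50 reads the median levels were 18.3%, 18.4% and 18.6%, so the higher median of the embryo list was not seen at that depth. A site with 20 reads is listed from 5 unconverted reads on, which lies well above the 10% limit. Sites with no converted read at all numbered 0 in both oocyte lists and 17 in the embryo list, in 17 genes and at 20 to 92 reads. Over all other genes such sites numbered 2 of 15518 in GV oocytes, 8 of 20187 in MII oocytes and 534 of 24357 in 1-cell embryos.

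The families did not gain sites alike. Arf sites numbered 35 in GV oocytes, 54 in MII oocytes and 84 in 1-cell embryos, and Trappc sites 28, 36 and 56. Sec sites numbered 40, 53 and 70, Rab sites 81, 117 and 140, and Tbc1d sites 55, 68 and 96. Stx sites numbered 21, 31 and 38, Cop sites 6, 9 and 17, and Exoc sites 5, 7 and 11. Vps sites, in contrast, stayed at 88, 96 and 89, and Snx sites at 33, 36 and 38. Exact Poisson intervals, which cover counting error only, did not overlap between GV oocytes and 1-cell embryos for Arf (24.4 to 48.7 against 67.0 to 104.0), Rab (64.3 to 100.7 against 117.8 to 165.2), Tbc1d (41.4 to 71.6 against 77.8 to 117.2) and Trappc (18.6 to 40.5 against 42.3 to 72.7), nor, narrowly, for Sec (28.6 to 54.5 against 54.6 to 88.4). The intervals overlapped for Vps and Snx, and for Stx, Cop and Exoc, whose counts were small. Overlap thus depends on the size of a family, and sites of a gene are not independent. In all other genes the sites numbered 15518 in GV oocytes, 20187 in MII oocytes and 24357 in 1-cell embryos, so a higher count in the embryo is not particular to these families. With a minimum of 50 reads, Arf sites numbered 29, 42 and 57, Rab sites 71, 98 and 82, and Vps sites 75, 74 and 37. The Arf genes thus had more sites in the embryo at that depth as well, while the Vps genes had fewer than in the oocytes. Of these Arf sites, the gene Arf6 alone gave 3, 4 and 16. In all other genes the sites with at least 50 reads numbered 12332, 15530 and 14360. No test was made between families.

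**Figure D1:**
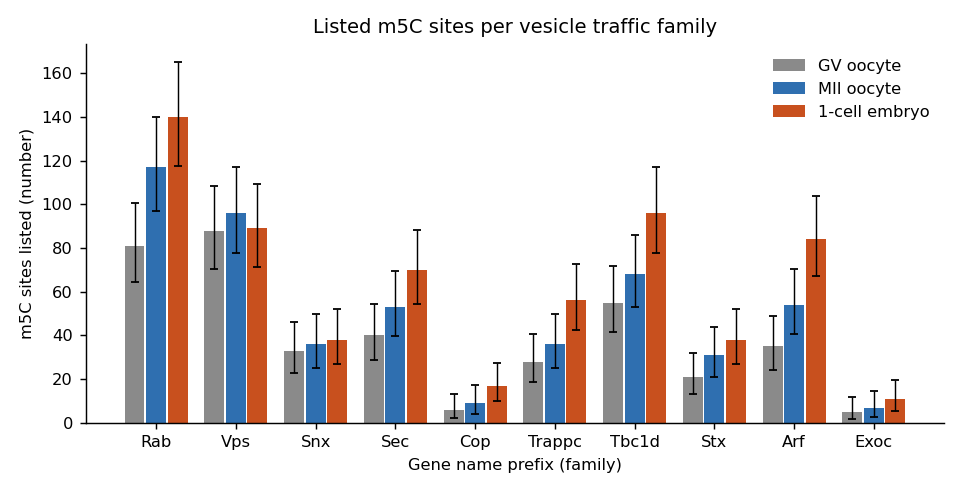
Number of listed m5C sites in each family of traffic genes (x axis, gene name prefix) in GV oocytes, MII oocytes and 1-cell embryos, with exact 95% Poisson intervals as bars. Arf sites go from 35 to 84, while Vps sites are at 88, 96 and 89.

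Of the 165 traffic genes listed in MII oocytes or 1-cell embryos, 84 had more sites in the embryo, 54 had fewer and 27 had the same number. The shares were close to those of all other genes, with 50.9% against 50.3% having more and 32.7% against 35.7% having fewer. Sec16a, which organizes the sites where COPII vesicles form, had 10 sites in GV oocytes, 12 in MII oocytes and 27 in 1-cell embryos, although the median coverage of its sites was 481.5, 407 and 71 reads. Arfgef2, an exchange factor for ARF1 at the trans-Golgi, had 9, 12 and 22. Trappc9 and Trappc10, subunits of the TRAPPII tether, had 7, 12 and 19 and 8, 9 and 20. Stxbp5 (tomosyn), which holds back SNARE assembly, had 4, 8 and 17.

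Genes that lost sites stood beside them. Vps13d, a bridge-like lipid transfer protein, had 18 sites in GV oocytes, 16 in MII oocytes and 4 in 1-cell embryos, and the median coverage of its sites was 130, 94 and 33.5 reads. Vps8, a subunit of the endosomal CORVET tether, had 8, 8 and 1, and Snx8, a sorting nexin of endosomes, had 9, 9 and 3. Tbc1d9b, which carries the TBC domain of RAB GTPase activators, had 8, 11 and 6. In these genes the fall in sites came with a fall in coverage in the embryo, and their parts were not tested. Pools of unequal cell number and transcripts of unequal amount per cell cannot be told apart from these coverages.

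**Figure D2:**
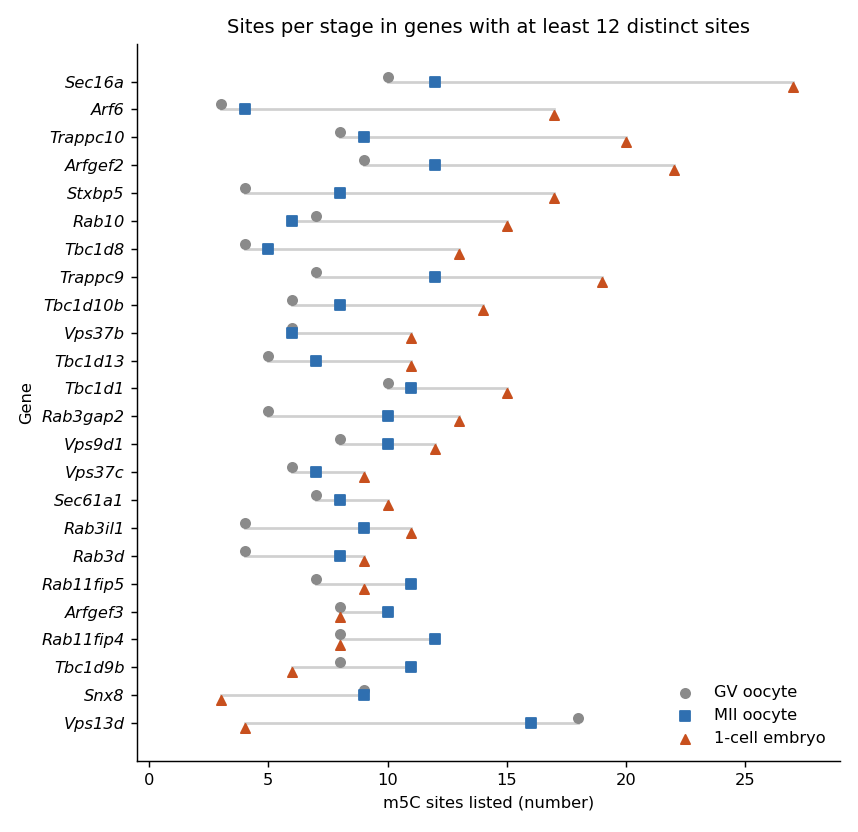
Number of listed sites (x axis) at each stage for the 24 traffic genes with at least 12 distinct sites, ordered by the difference between 1-cell embryos and MII oocytes. Sec16a is at the top with 10, 12 and 27 sites and Vps13d at the bottom with 18, 16 and 4.

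The ARF GTPases recruit coats and adaptors to membranes. They were Arf1, Arf3, Arf5 and Arf6 at every stage and Arf2 in MII oocytes alone, with 12 sites in GV oocytes, 18 in MII oocytes and 39 in 1-cell embryos. Arf6, which acts at the plasma membrane and in endosome recycling, gave 3, 4 and 17 of them. In 1-cell embryos 14 of its 17 sites lay in the 5′ UTR, all in exon 2 and within 390 bases of each other, at 57 to 145 reads and levels of 10.5% to 84.0%, and 12 of the 14 were in the embryo list alone. The oocyte lists held 2 and 3 sites of this 5′ UTR, and the other embryo positions carry no coverage in those lists, so absence there cannot be read as absence of m5C. At Arf6 position 69372578 on chromosome 12, the level was 41% of 300 reads in GV oocytes, 43.0% of 305 in MII oocytes and 84.0% of 75 in 1-cell embryos. At the neighbouring position 69372604 it was 27.3% of 384 reads, 25.7% of 373 and 30.3% of 89, so neighbouring sites of the same exon differed. The rise of the first from MII oocytes to 1-cell embryos passed Fisher's exact test (adjusted p = 8.28e-10), and the difference of 4.60 points at the second did not (adjusted p = 0.523).

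Rab10, a RAB GTPase of exocytosis and recycling, showed the same layout. Its sites numbered 7 in GV oocytes, 6 in MII oocytes and 15 in 1-cell embryos, of which 6, 5 and 11 lay in the 5′ UTR. The 11 embryo sites lay in exon 1 within 435 bases, at 35 to 200 reads and levels of 11.9% to 70.0%, and 6 of them were in the embryo list alone. At Rab10 position 3309623 on chromosome 12 the level was 32.2% of 581 reads, 35.5% of 605 and 70.0% of 200, and the rise into the embryo passed Fisher's exact test (adjusted p = 6.57e-16). At the adjoining position 3309670 the level was 16.5% of 412 reads, 21.2% of 477 and 25.5% of 184, and at 3309671 it was 10.4% of 413, 13.2% of 477 and 36.2% of 188. The second of these neighbours was the lower in both oocytes and the higher in the embryo, and its rise into the embryo alone of the pair passed the test (adjusted p = 1.5e-09 against 0.342, Fisher's exact test). Of the 91 sites that traffic genes had in 5′ UTRs in the embryo, Arf6 held 14 and Rab10 held 11. The share of C left unconverted, recovered as above, was 0.659%, 1.13% and 1.56% in Rab10 and 0.428%, 0.548% and 0.928% in Arf6. The embryo value of Rab10 was the highest among the traffic genes, and both genes lay above their embryo upper quartile of 0.532%. The part of incomplete conversion in these sites was not tested.

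**Figure D3:**
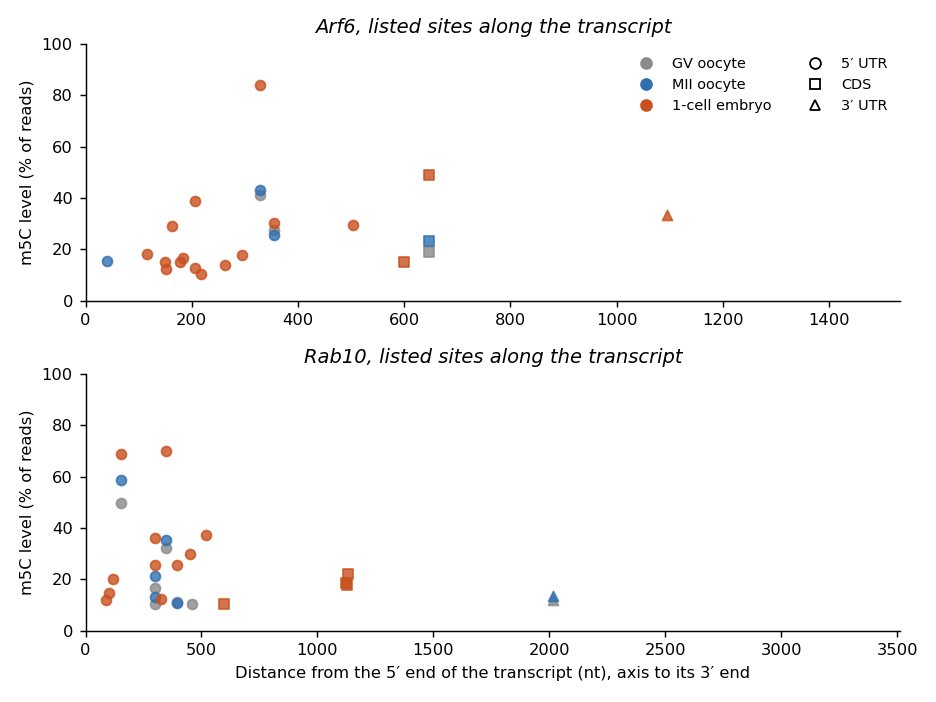
m5C level (y axis, % of reads) of the listed sites of Arf6 and Rab10 along their transcripts (x axis, bases from the 5′ end), coloured by stage, with circles for the 5′ UTR, squares for the CDS and triangles for the 3′ UTR. Embryo sites crowd in the 5′ UTR of both genes, 14 in Arf6 and 11 in Rab10.

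The 5′ UTR share of all traffic sites was 12.8% in GV oocytes, 13.2% in MII oocytes and 14.2% (95% Wilson interval 11.7 to 17.2%) in 1-cell embryos, beside 11.1%, 11.3% and 10.2% in all other genes. Without Arf6 and Rab10, a choice made after the values were seen, the shares were 11%, 11.9% and 10.9% (8.64 to 13.6% in the embryo). These genes held the most 5′ UTR sites in the embryo, so leaving them out had to lower its share. No matching genes were left out of the other genes, so the lower share gives no verdict. The coding sequence held 65.8%, 65.9% and 68.5% of the traffic sites and the 3′ UTR 20.9%, 20.1% and 16.4%. The coding sequence share was 49.4%, 50.4% and 59.3% in Rab genes and 81.8%, 84.4% and 77.5% in Vps genes. In 1-cell embryos the median level was 30.8% in 5′ UTRs, 22.0% in coding sequence and 26.8% in 3′ UTRs of traffic genes. No test was made between regions or between families here.

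Type II sites made up 6.63% of the traffic sites in GV oocytes, 5.52% in MII oocytes and 3.44% in 1-cell embryos, beside 5.89%, 5.01% and 3.45% in all other genes. In counts these were 26, 28 and 22 Type II sites beside 366, 479 and 617 Type I sites. The traffic genes had 43 distinct Type II sites in 37 genes, 9 of them at every stage. Among the Type I sites G stood at the second base after the C in 67.2%, 67.4% and 63.7%, and the mean number of G in the 4 bases after the C was 2.23, 2.23 and 2.06 (SD 0.815, 0.832 and 0.911 over 366, 479 and 617 sites).

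From GV to MII oocytes, 332 traffic sites were listed at both stages. Their levels were compared with Fisher's exact test on unconverted and converted reads, with Benjamini-Hochberg adjustment over all 12954 shared sites of all genes. The test found 56 higher in MII oocytes (16.9%, with 19.6% over all shared sites) and 3 lower (0.904%, with 0.965%). The median difference was 4.60 points (order-statistic 95% interval 3.40 to 5.62), beside 4.88 in all other genes. By family, 19 of 75 Rab sites, 14 of 47 Tbc1d sites, 10 of 74 Vps sites, 6 of 34 Sec sites, 4 of 24 Trappc sites, 2 of 28 Arf sites, 1 of 23 Snx sites and 0 of 18 Stx sites rose.

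The largest rises with at least 50 reads in both oocyte libraries were in Rab11fip3, Vps37b and Rab3a. In Rab11fip3, an effector that links RAB11 to recycling endosomes, the site at position 26067956 of chromosome 17 (exon 1, CDS) was at 10.9% of 101 reads in GV oocytes and 42.0% of 69 in MII oocytes (adjusted p = 0.000105, Fisher's exact test), and was not listed in the embryo. In Vps37b, a subunit of ESCRT-I, position 124005959 of chromosome 5 (3′ UTR) was at 41.3% of 63 reads, 69.2% of 65 and, in 1-cell embryos, 85.7% of 28. In Rab3a, a RAB of regulated exocytosis, position 70755983 of chromosome 8 (codon 43) was at 23.3% of 60 reads, 50% of 58 and 100% of 33. The Vps37b site passed the test at the first step (adjusted p = 0.0162) and not at the second (adjusted p = 0.187, Fisher's exact test), and the Rab3a site passed at both (adjusted p = 0.024 and 4.65e-07).

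The 3 sites that were lower in MII oocytes were in Sec61a1, Copg1 and Sec23b. Other genes of the early secretory pathway, such as Sec16a, Sec24b and Sec62, held sites called higher. In Sec61a1, the channel of the endoplasmic reticulum translocon, position 88503789 of chromosome 6 was in the 3′ UTR and stood at 84.8% of 355 reads and then 68.6% of 382 (adjusted p = 7.2e-06, Fisher's exact test). In Copg1, a COPI coat subunit, position 87892710 of chromosome 6 went from 24.3% of 218 reads to 13.5% of 244 (adjusted p = 0.024, Fisher's exact test). It stood at 34.6% of 52 reads in 1-cell embryos, which was a rise from MII oocytes by the same exact test (adjusted p = 0.00237). In Sec23b, an inner COPII coat subunit, position 144590308 of chromosome 2 went from 46.9% of 32 reads to 11.1% of 54 (adjusted p = 0.00456, Fisher's exact test), at fewer than 50 reads in GV oocytes.

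From MII oocytes to 1-cell embryos, 241 traffic sites were listed at both stages, with a median of 225 reads in MII oocytes and 64 in the embryo. Of these 121 were higher in the embryo (50.2%, with 51.3% over all 8015 shared sites) and 7 were lower (2.90%, with 2.45%). The median difference was 14.4 points (11.2 to 17.3), beside 12.7 in all other genes. At thin coverage the embryo list holds only higher levels, so shared sites leave out low embryo levels there. With at least 50 and 100 reads the median difference was 10.1 and 7.69 points. The part of this limit in the rises was not tested. Rises were called in 65 genes. They were found at 18 of 27 Arf sites (66.7%, Wilson interval 47.8 to 81.4%), 28 of 54 Rab sites, 8 of 14 Snx sites, 11 of 21 Trappc sites, 9 of 18 Stx sites, 19 of 39 Tbc1d sites, 15 of 36 Vps sites and 10 of 26 Sec sites (38.5%, 22.4 to 57.5%). The Arf and Sec intervals overlap, and the coverage ratio of the embryo to the MII library at these sites was also lower in Sec (median 0.198) than in Arf (0.355), which was not tested.

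Among sites with at least 50 reads at both stages, the 3 largest rises into the embryo were in Arfgef2, Arfgef1 and Stxbp6. Sites with fewer embryo reads rose further, the furthest being position 5902451 of chromosome 17 in Snx9, a sorting nexin of endocytosis named after its values were seen, from 24.6% of 309 reads in MII oocytes to 100% of 29. At the Arfgef2 site printed above (exon 38, codon 1713) the level was 18.9% of 74 reads in GV oocytes, 41.2% of 51 in MII oocytes and 100% of 50 in 1-cell embryos (Wilson interval 92.9 to 100%), and both steps passed Fisher's exact test (adjusted p = 0.043 and 5.68e-11). In Arfgef1, its close relative, position 10138841 of chromosome 1 (codon 1844) was at 12.1% of 91 reads in MII oocytes and 60.9% of 69 in the embryo (adjusted p = 9.46e-10, Fisher's exact test), and was not listed in GV oocytes. In Stxbp6 (amisyn), which binds syntaxins, the 5′ UTR site printed above was at 19.0% of 100 reads, 27.2% of 147 and 72.7% of 55. In all 3 sites the Wilson interval of the embryo lay above that of each oocyte stage where the site was listed. The sites were chosen for their rises, so this adds no support.

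The 7 sites that were lower in the embryo were in Rab11fip3, Rab3il1, Tbc1d1, Tbc1d10b, Vps4a, Vps72 and Vps8. In Vps4a, the ATPase that takes ESCRT-III filaments apart, position 107031373 of chromosome 8 (5′ UTR) was at 39.4% of 127 reads, 60.7% of 89 and 40.7% of 59, and so was called higher at the first step and lower at the second. In Tbc1d1, a RAB GTPase activator of glucose transporter traffic, the Type II site of exon 15 was at 51.3% of 822 reads, 57.2% of 594 and 42.3% of 194 (adjusted p = 0.00107 for the second step, Fisher's exact test). Vps72, which is no traffic protein, had 24.8% of 553 reads, 33.6% of 521 and 21% of 176 at position 95122396 of chromosome 3. In Rab11fip3, position 26067731 of chromosome 17 had 65.8% of 76 reads, 75.9% of 54 and 34.8% of 23. The other 3 were at 13.8% of 145 reads in Rab3il1, 16.3% of 49 in Tbc1d10b and 22.2% of 27 in Vps8 in the embryo. All of these genes but Vps8 also held a site called higher in the embryo.

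From GV oocytes to 1-cell embryos, which share their libraries with the steps above, 190 traffic sites were listed at both stages. The test called 123 higher in the embryo (64.7%, with 66.1% over all 6478 shared sites) and 3 lower (1.58%, with 1.05%). The median difference was 20.4 points (15.8 to 24.1), beside 19.2 in all other genes. The same limit of the embryo list applies here. With at least 50 and 100 reads the median difference was 16.2 and 14.6 points. At the printed site of Tbc1d10a, an activator of RAB35 and RAB27, the level was 17.5% of 280 reads in GV oocytes, 37.6% of 197 in MII oocytes and 72.1% of 61 in 1-cell embryos, and the adjusted p over the whole span was 3.45e-15 (Fisher's exact test).

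At the 182 traffic sites listed at all 3 stages the median level was 20.9% in GV oocytes, 26% in MII oocytes and 44% in 1-cell embryos. At 130 of them (71.4%, Wilson interval 64.5 to 77.5%) the value was higher at each step, beside 67.3% in all other genes, and at 2 it was lower at each step. The medians of the 17 Arf sites were 27.3%, 32.8% and 70.0%, and those of the 19 Sec sites 14.6%, 24.0% and 35.6%. The 11 Snx sites were at 23.1%, 25.6% and 65.6% and the 34 Tbc1d sites at 20.6%, 26.6% and 37.8%. The 3 Cop sites had a lower median in MII oocytes, at 24.3%, 15.9% and 34.6%. No site of the exocyst genes was listed at all 3 stages. A site listed at all 3 stages had to pass the limits of the embryo list too, which leave out low levels at thin coverage.

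**Figure D4:**
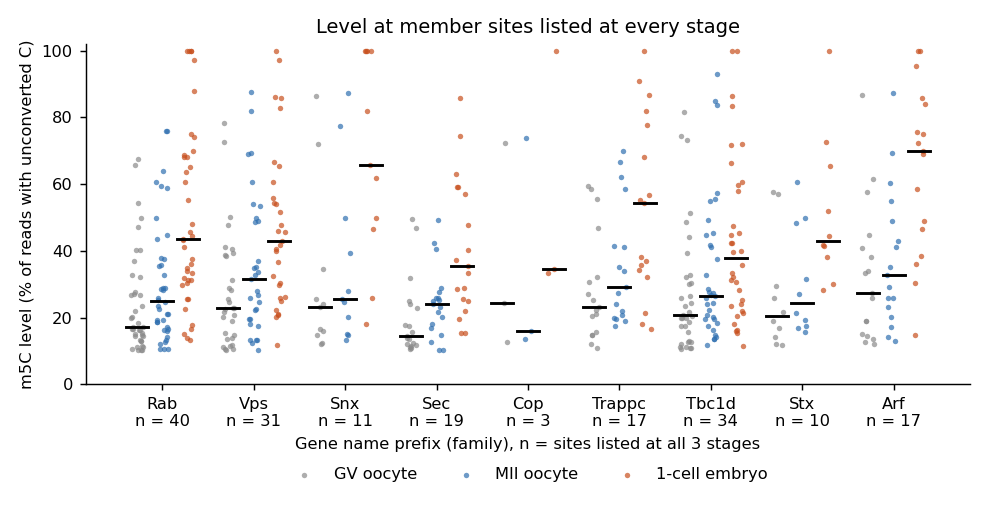
m5C level (y axis, % of reads) at the 182 traffic sites listed at every stage, by family (x axis) and stage, with 1 point per site and a bar at the median. The embryo median is the highest of the 3 in each of the 9 families with such sites, from 34.6% in Cop to 70.0% in Arf. Every site had to pass the limits of the embryo list, which leave out low levels at thin coverage.

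The 10 sites with the highest lowest coverage carry the smallest counting error. In Tbc1d15, an activator for RAB7 at lysosomes and mitochondria, position 115233207 of chromosome 10 (codon 86) was at 39.2% of 3105 reads in GV oocytes (Wilson interval 37.5 to 41%), 55.1% of 3351 in MII oocytes (53.4 to 56.7%) and 60.6% of 1189 in 1-cell embryos (57.7 to 63.3%). In Vps26a, a core retromer subunit, position 62456774 of chromosome 10 (codon 351) was at 22.8% of 1734 reads, 36.9% of 1746 and 45.8% of 544. Arf1, the ARF of the Golgi, had 38.1% of 1432 reads, 55.0% of 1478 and 74.9% of 459 at position 59211964 of chromosome 11 in its 3′ UTR. In these genes both steps were called higher by Fisher's exact test, with adjusted p between 3.54e-34 and 0.00291.

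In 3 other genes with deep sites the test called the second step and not the first. Sec61b, another subunit of the translocon, had 49.5% of 979 reads, 49.3% of 916 and 74.4% of 390 at position 47480220 of chromosome 4. Arf6 had 19.0% of 1015 reads, 23.0% of 1128 and 48.8% of 260 at codon 35, with an adjusted p of 0.0899 for the first step and 4.11e-14 for the second (Fisher's exact test). Arf3 was near complete from the start, with 86.8% of 848 reads, 87.3% of 1011 and 95.4% of 372 at codon 112, and its rise into the embryo was called (adjusted p = 1.98e-05, Fisher's exact test). In contrast, Stx12, a syntaxin of recycling endosomes, had 25.8% of 654 reads, 31.6% of 700 and 38.0% of 347, where neither step alone passed (adjusted p = 0.089 and 0.0772, Fisher's exact test) and the whole span did (adjusted p = 0.000208).

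Tbc1d14, which binds RAB11 on recycling endosomes and acts in autophagy, gave 3 of the 10 deepest sites in 3 regions of its transcripts on chromosome 5. The coding site at position 36524944 was at 21.7% of 2460 reads, 26% of 2232 and 47.4% of 1044. The 3′ UTR site at position 36492451 was at 12.1% of 2811 reads, 13.7% of 2053 and 24.1% of 692, and the 5′ UTR site at position 36593160 at 20.0% of 1383, 24.2% of 1124 and 31.1% of 559. All 3 were called higher from MII oocytes to the embryo, and the coding site alone of the 3 from GV to MII oocytes. In the plot of the deepest sites these are numbered in the order coding, 3′ UTR, 5′ UTR.

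**Figure D5:**
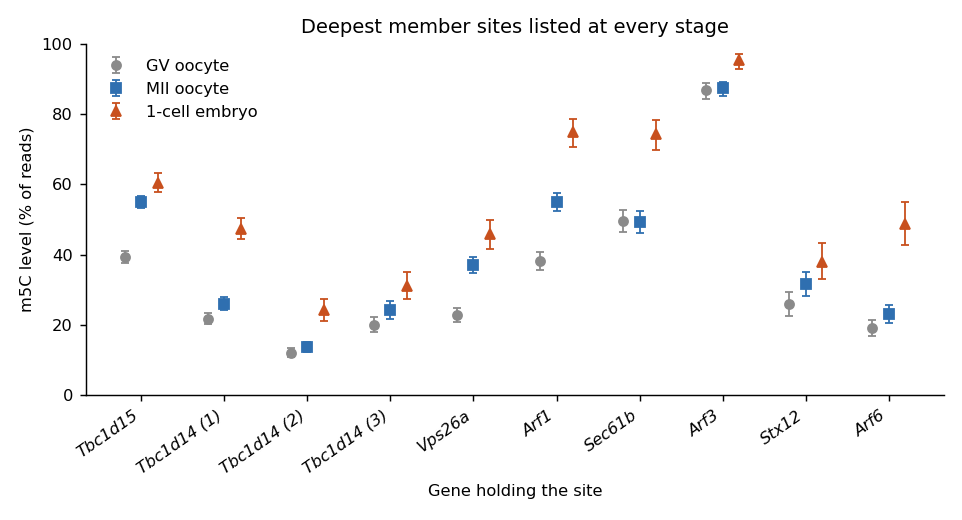
m5C level (y axis, % of reads) with 95% Wilson intervals at each stage for the 10 traffic sites listed at every stage whose lowest coverage was highest (x axis, by gene, the deepest at the left). Tbc1d15 goes from 39.2% to 60.6%, Arf3 stays above 86%, and Sec61b and Arf6 differ little between the oocytes.

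High levels were found in genes of several roles. Besides Arf3, the sites highest in level with at least 100 reads were, in GV oocytes, the Sec61a1 3′ UTR site described above and position 140352172 of chromosome 5 in Snx8, at 86.3% of 153 reads. In MII oocytes they were exon 2 of Tbc1d1, at 92.9% of 239 reads, and position 33442021 of chromosome 6 in Exoc4, an exocyst subunit, at 90.9% of 110. In 1-cell embryos they were position 127207777 of chromosome 7 in Tbc1d10b, at 86.4% of 258 reads, and the Arf1 3′ UTR site. The Tbc1d1 site had no converted read among 92 in the embryo, and neither had position 98585994 of chromosome 9 in Copb2, a COPI coat subunit, among 86, after 72.3% of 696 reads in GV oocytes and 73.8% of 584 in MII oocytes. Of the 17 such sites, 16 were listed at every stage and 1, in Sec24d, in the embryo alone.

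Of the 10 Type II sites listed in both MII oocytes and 1-cell embryos 1 was called higher and 1 lower, with a median difference of 6.76 points. Among the 231 Type I sites 120 were called higher and 6 lower, with 15.1 points. Over all 8015 shared sites of both types 51.3% were called higher and 2.45% lower. Calls by type were not counted in the other genes. In Stx5a, the syntaxin of endoplasmic reticulum to Golgi fusion, the 5′ UTR site was at 57.6% of 432 reads, 60.8% of 408 and 65.4% of 188, and no pair passed (adjusted p = 0.611, 0.413 and 0.103, Fisher's exact test). In Rab27a, a RAB of granule docking, the 3′ UTR site was at 40.2% of 249 reads, 60.8% of 181 and 68.0% of 75, and rose at the first step (adjusted p = 0.0004, Fisher's exact test). In Sec16a the Type II site was at 13.7% of 498 reads, 16.7% of 412 and 29% of 138, and rose at the second (adjusted p = 0.007, Fisher's exact test). In Sec61a1 it was at 12.1% of 514 reads, 10.4% of 356 and 19.7% of 71, with no step called. With so few Type II sites the difference between the types was not tested.

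The coats and their partners differed in number of sites and in median level, and no test was made between them. Median levels were 22.4%, 15.8% and 16.7% in COPI genes and 14.7%, 16.5% and 20.3% in COPII genes. COPI genes had 6, 9 and 17 sites, with Copb1 and Cope listed in 1-cell embryos alone, and COPII genes with their assembly factors had 24, 33 and 51. Of the 5 COPI sites listed in both MII oocytes and the embryo 3 rose and none was called lower, with a median difference of 17.5 points. Of the 17 COPII sites listed in both 8 rose and none was called lower, with a median difference of 12.2 points. Over all shared sites 51.3% were called higher and 2.45% lower. Within Sec16a, positions 26421417 and 26421418 of chromosome 2 are neighbours in exon 21. The first was at 11.8% of 578 reads, 25% of 577 and 15.3% of 98, and the second at 32.0% of 588, 42.4% of 578 and 63.1% of 103. Both were called higher in MII oocytes, and the second was called higher again in the embryo while the first was not (adjusted p = 0.000506 and 0.0702, Fisher's exact test).

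Among the endosomal genes, the retromer with its sorting nexins had few sites, 6 in GV oocytes, 4 in MII oocytes and 8 in 1-cell embryos. Vps35, its scaffold, had a Type II site in exon 3 at 20.9% of 254 reads, 19.7% of 198 and 26% of 50, with no step called. ESCRT genes had 19, 20 and 31 sites, most of them in Vps37b (6, 6 and 11) and Vps37c (6, 7 and 9). The list taken for HOPS and CORVET, which also counted Vps33b (3, 4 and 5 sites), had 13, 17 and 9. GARP and EARP genes, led by Vps52 (8, 7 and 5), had 15, 14 and 14. The median coverage in the embryo was 27 reads for the HOPS and CORVET list with Vps33b and 40.5 for GARP and EARP. Both were under the median of 58 for all traffic sites.

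RAB GTPases proper had 39 sites in 16 genes in GV oocytes, 55 in 22 in MII oocytes and 78 in 22 in 1-cell embryos. Of their 28 sites in both MII oocytes and the embryo, 14 rose and none was called lower, close to the 51.3% of all shared sites called higher. Rab3d, a RAB of secretory granules, had 4, 8 and 9 sites, and Rab1b, which acts between endoplasmic reticulum and Golgi, had 7, 6 and 2. The RAB3 GTPase activator subunits and RAB11 effectors had 36, 49 and 48 sites. Rab3gap2 went from 5 to 10 to 13 sites, while Rab11fip4 had 8, 12 and 8.

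TRAPP genes had 28, 36 and 56 sites, and 11 of the 21 in both MII oocytes and the embryo rose, with none called lower, again close to the 51.3% of all shared sites. Of the 56 embryo sites Trappc9 gave 19 and Trappc10 gave 20. The exocyst had few sites, with 5, 7 and 11, and Exoc2 gave 6 of the 11 while being listed in no oocyte. Those 6 were at 23 to 99 reads and levels of 11.3% to 52.2%. The syntaxins had 12, 15 and 16 sites with median levels of 20.6%, 18.3% and 39.0%, and 6 of their 9 sites in both MII oocytes and the embryo rose. The syntaxin binding proteins had 9, 16 and 22 sites, of which Stxbp5 gave 4, 8 and 17.

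Of the 171 genes, 106 were listed at every stage, 15 in both oocytes but not the embryo, 20 in the embryo alone, 13 in MII oocytes and the embryo, 7 in MII oocytes alone, 6 in GV oocytes alone and 4 in GV oocytes and the embryo. This split was not computed for the other genes, so it cannot be called particular to traffic genes. Of the 8182 other genes, 5977 were listed in GV oocytes, 6595 in MII oocytes and 6264 in 1-cell embryos. Genes of the embryo alone with most sites were Exoc2 with 6 and Rab3b, Rab32 and Tbc1d19 with 3 each. Those of GV oocytes alone with the most reads held 1 site each, Stx17 at 10.6% of 358 reads, Snx6 at 10.1% of 149 and Snx12 at 16.5% of 127, the first and the second of them close to the 10% limit. In MII oocytes alone were Rab29 with 2 sites and Sec22c and Rab9 with 1 each. Of the 390 sites that only the embryo list held, 90.8% lay in genes with an oocyte site, close to the 88.4% of all other genes.

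Sharing of sites between the lists was compared with that of all other genes. Of the MII traffic sites 47.5% (Wilson interval 43.2 to 51.9%) were also in the embryo list, beside 38.5% (37.8 to 39.2%) in all other genes. Of the GV traffic sites 48.5% (43.6 to 53.4%) were, beside 40.5% (39.8 to 41.3%). As shares of the embryo list these are 37.7% and 29.7%, beside 31.9% and 25.8%. GV and MII oocytes shared 332 traffic sites, 84.7% of the GV and 65.5% of the MII list. Sites of a gene are not independent, so these intervals cover counting error only and no test was made. At shared sites alone, the median ratio of embryo to MII reads was 0.323 in traffic genes and 0.318 in all others. Over the whole oocyte lists, traffic sites were less often thinly covered. Under 50 reads were 12.8% of them beside 20.5% of other sites in GV oocytes, and 17.9% beside 23.1% in MII oocytes. The part of coverage in the sharing was not tested.

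Other genes of the pathway, taken from lists of SNAREs, RAB regulators, clathrin and adaptors, further ESCRT subunits, golgins and Golgi tethers, cargo receptors and ARF regulators, held 199 genes that the names above do not take. Sites were listed in 115 of them in GV oocytes, 131 in MII oocytes and 118 in 1-cell embryos. From GV to MII oocytes 31 of their 266 shared sites rose (11.7%, with 19.6% over all shared sites) and 6 fell (2.26%, with 0.965%), and from MII oocytes to 1-cell embryos 84 of 158 rose (53.2%, with 51.3%) and 3 fell (1.90%, with 2.45%). The median differences were 4.54 and 13.7 points, beside 4.60 and 14.4 in the 171 genes. Of the SNAREs and their recycling factors 13 of 21 sites rose at the second step, and of the clathrin and adaptor genes 19 of 36.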

How the data were processed

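Read trimming used cutadapt and Trimmomatic 0.36, and alignment to C-to-T converted GRCm38 sequence used HISAT2 for the genome and Bowtie2 2.2.9 for the transcripts, per the study's methods and the submitters' processing notes. For each called site the authors deposited a read count (coverage by C or T, with no scaling). Beside it the authors gave the m5C level as a fraction, printed here in percent. The p-value the authors deposited comes from a binomial test against the conversion of the gene.

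Reads with many unconverted C were removed by the authors, a step whose part in closely spaced sites was not tested. Unconverted reads were recovered as level times coverage, with all values whole within 2.9e-05 reads. Sites were placed on GENCODE M21 transcripts, preferring coding sequence, and all 957 member sites fell on C there. Levels were compared with Fisher's exact test (scipy 1.17.1, two-sided, called at adjusted p under 0.05). The test was tried on simulated reads drawn as independent, so that trial does not cover reads that are copies of each other. Intervals are 95% Wilson, Poisson or order-statistic intervals and cover counting error only, since reads without molecular identifiers need not be separate molecules. Members and lists were chosen with earlier results of these data known.

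Named genes and sites are, per family, the gene with most sites; per stage pair, the 3 largest rises and falls among called sites with at least 50 reads at both stages; the 10 deepest sites listed at every stage; per stage, the 3 highest levels with at least 100 reads; 5 Type II sites; up to 4 genes per complex; and 3 genes listed at 1 stage alone. The remaining sites of these genes, and the calls in the other direction, were named after their values were seen. Alternatives were coverage minimums of 50 and 100 reads, a level minimum of 20%, thinning to 20 reads, reads divided by 5, background subtraction, annotation symbols and leaving out regulators and partners.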

Additional observations from a re-analysis of the deposited data

How the results depend on the processing

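No paired analysis was possible because each stage has 1 library, and leaving out a replicate was not possible for the same reason. Subtracting the gene's background moved the 6 results computed under it little, with median levels of 18.6%, 19.0% and 24.4%. Taking members by annotation symbol added 3 genes and gave 396, 514 and 647 sites, beside 392, 507 and 639. The 15 results computed under it also moved little. Leaving out regulators and partners lowered all 6 counts computed under it, to 312, 387 and 504 sites in 109, 118 and 121 genes. The full counts were 131, 141 and 143 genes. Levels and calls were not computed under this last setting.

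With at least 50 reads the embryo list held 389 member sites with a median level of 18.6%, a CDS share of 73.0% and a 3′ UTR share of 12.3%. From MII oocytes to embryos 79 sites were then higher and 4 lower, with a median difference of 10.1 points, and from GV oocytes 78 and 1, and 36.3% of MII and 33.6% of GV sites were shared with the embryo. With at least 100 reads there were 256, 281 and 134 sites, 49 embryo genes, median levels of 16.7% in GV oocytes and 17.6% in embryos, embryo shares of 2.24% Type II, 73.9% CDS and 10.4% 5′ UTR, and MII shares of 71.2% CDS and 15.7% 3′ UTR. The sharing was 78.9% of GV with MII sites, and 23.1% of MII and 19.5% of GV sites with the embryo. From MII oocytes 32 sites were higher and 3 lower (7.69 points), and from GV oocytes 37 and 1 (14.6 points), where 56.6% and 75.5% of all shared sites were higher.

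With a level of at least 20% the lists held 184, 245 and 390 sites with medians of 32.1%, 32.8% and 35.5% and an embryo CDS share of 64.1%. From GV to MII oocytes 31 were higher and 1 lower (5.90 points), and 66 and 62 were higher in embryos than in MII and GV oocytes. Thinned to 20 reads there were 168, 232 and 367 sites with medians of 35%, 35% and 40%, an embryo CDS share of 64.6% and 76.2% of GV sites in MII oocytes. Calls were then 0 higher and 0 lower from GV to MII oocytes (median difference 7.50 points), 8 and 0 from MII oocytes to embryos, and 16 and 0 from GV oocytes (25 points), where 0%, 9.62% and 17.4% of all shared sites were higher, and the Tbc1d1 site of exon 15 differed by 0 points between GV oocytes and embryos. With reads divided by 5, as if reads were copies, calls were 3 higher and 0 lower, 17 and 0, and 37 and 0 for the same pairs (with 0.672%, 7.34% and 21.1% of all shared sites higher), and 3 of 15 calls at named sites remained, so the number of calls follows how many reads count as separate molecules. Without Arf6 and Rab10, chosen after the data were seen, the embryo 5′ UTR share was 10.9%. The median difference of each pair stayed positive under the 6 settings for which it was computed. The unequal depth limits all comparisons with the embryo, where sites shared with GV oocytes had a median of 0.270 times as many reads.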
